A study of Rattus norvegicus with 16 samples.

Results

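Among rat pancreatic islets that all carried a PPARγ adenovirus, the arrays fell into a side with high and a side with low signal for the hormones of the islet cells other than beta cells. The high side is replicate numbers 1 and 3 and the low side replicate numbers 2 and 4. Each number has a vehicle and a compound array, so that each side holds 4 arrays, 2 with vehicle and 2 with compound. Together they are 8 of the 16 deposited columns, which hold 15 distinct arrays. The sides were picked from the glucagon and pancreatic polypeptide values of these same arrays. Everything that sets one side against the other is therefore a description, given with no test.

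All islets were labelled as isolated rat pancreatic islets and had been exposed to adenovirus at 50 viral particles per cell for 32 h, followed by 16 h of incubation. The vehicle arrays had 0.004% DMSO and the compound arrays 200 nM of GW347845, an agonist of the nuclear receptor PPARγ. The null virus arrays, used below as samples in which the sides had not been picked, received an adenovirus without PPARγ at the same dose and times, with vehicle or compound. Strain, sex and age of the rats are not given in the labels, nor is the species of the viral PPARγ, nor whether a replicate number marks one islet preparation. How much of the spread between replicates is technical cannot be told from the labels and was not tested.

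Rodent islets have a core of beta cells, which make insulin and amylin, and a mantle of alpha cells (glucagon), delta cells (somatostatin) and PP cells (pancreatic polypeptide). Peptide YY, a relative of pancreatic polypeptide, is made in subsets of the mantle cells. In RNA of whole islets, fewer cells of a type and less RNA per cell cannot be told apart.

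For the 4 hormone genes the 100 bases before the annotated start are shown. The sides were picked from Gcg and Ppy, and Pyy and Sst are the other hormones set beside them. Sequences are RefSeq's, on build GRCr8, written 5′ to 3′ on the gene's strand, and all 4 genes were found in the table. Capitals mark TATAAA, the core of a TATA box, searched on both strands.
Gcg (chr3:67531534-67531633, minus strand): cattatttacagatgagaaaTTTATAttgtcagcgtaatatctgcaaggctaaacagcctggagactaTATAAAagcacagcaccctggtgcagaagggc
Ppy (chr10:87556237-87556336, minus strand): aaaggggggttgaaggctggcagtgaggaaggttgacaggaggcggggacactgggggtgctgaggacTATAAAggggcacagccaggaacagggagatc
Pyy (chr10:87562471-87562570, minus strand): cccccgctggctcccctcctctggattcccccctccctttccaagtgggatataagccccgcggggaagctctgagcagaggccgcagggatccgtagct
Sst (chr11:90461446-90461545, plus strand): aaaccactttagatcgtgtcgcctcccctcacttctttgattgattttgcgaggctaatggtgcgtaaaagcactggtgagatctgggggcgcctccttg
In Gcg and Ppy the match on the gene's own strand began 32 bases before the start; Gcg also has the motif on the opposite strand. The windows of Pyy and Sst do not hold these letters. Of 33469 promoter windows of this length, 5.78% hold the motif. Ppy and Pyy are neighbours on the same strand, with starts 6234 bases apart.

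The values are intensities on a linear scale, and differences are on the scale of log2(intensity + 4.6), which understates the change of dim genes. A range beside a difference is its lowest and highest value over the 4 pairs of a high and a low number. Each number is the mean of its vehicle and compound array. Many genes of the lists are given without a range, and their pairs can differ widely. Gcg, which encodes glucagon, read 3788 and 3606 in number 1 (vehicle, then compound, as in all lists below) and 4192 and 3911 in number 3. It read 421 and 181 in number 2, and 1231 and 1221 in number 4. The difference was 2.72 (1.59 to 3.85). The lowest array of the high side thus stood at 3606 and the highest of the low side at 1231. The high numbers were nearly alike, while number 4 stood 2.13 above number 2.

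Ppy, the gene for pancreatic polypeptide, read 2884 and 2689 in number 1, 2754 and 2172 in number 3, 134 and 67.6 in number 2, and 692 and 720 in number 4. Its difference of 3.29 (1.79 to 4.80) showed the same order, with number 4 between number 2 and the high side. Pyy, for peptide YY, read 1485 and 1549 in number 1, 1589 and 1537 in number 3, 115 and 49.9 in number 2, and 255 and 169 in number 4, a difference of 3.56 (2.84 to 4.28). Arrays of the sides were far from overlapping for these 3 hormones.

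Sst, for somatostatin, behaved differently. It read 294 and 512 in number 1 and 1254 and 1279 in number 3, against 272 and 155 in number 2 and 223 and 170 in number 4. The difference was 1.79 (0.90 to 2.67), and it lay mostly in number 3, which stood 1.69 above number 1. The nearest arrays of the sides were 294 and 272, so the label of a side rich in non-beta hormones holds for Gcg, Ppy and Pyy in both of its numbers but for Sst mainly in number 3. Ghrl, for ghrelin of the epsilon cells, overlapped, at 49.2 to 69.3 on the high and 44.9 to 56.9 on the low side.

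**Figure D1:**
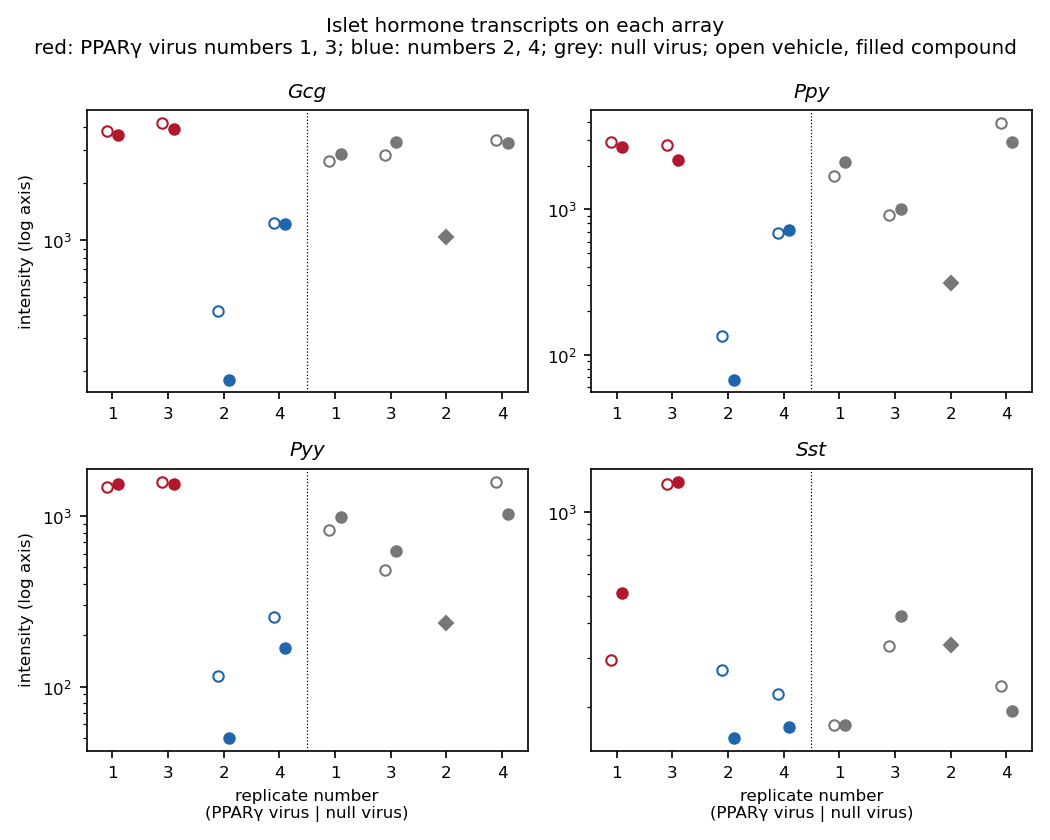
Intensity (log axis) of the 4 hormone transcripts on each array, by replicate number, with PPARγ virus numbers to the left of the dotted line and null virus numbers to the right; open circles are vehicle, filled circles compound, and the diamond is the null virus array deposited under both labels of number 2. Numbers 1 and 3 of the PPARγ virus sit above numbers 2 and 4 in all panels, and Sst reaches 1254 and 1279 in number 3.

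Across all genes, the first principal component of the 8 arrays held 45.1% of the variance. Numbers 1 and 3 lay at -24.1 to -16.4 on it and numbers 2 and 4 above 0, up to 25.0. Measures of the arrays themselves mostly overlapped. The 3′ to 5′ ratio of the Gapdh controls was 8.39 to 12.6 on the high and 8.36 to 11.0 on the low side, and that of the beta-actin controls 7.58 to 11.3 and 10.2 to 14.9. Both arrays of number 2 had the highest beta-actin ratios, 13.4 with vehicle and 14.9 with compound. The median intensity was 60.4 to 67.5 against 56.4 to 62.1. Pparg, which here reports the virus and is the brightest or nearly the brightest probe set, read 5932 to 6199 on the high and 4593 to 5549 on the low side, without overlap (0.24, range 0.14 to 0.35). The part of these measures in the differences below was not tested.

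A probe set was counted as not overlapping if its 4 arrays of one side all lay above the 4 of the other. Of 10078 probe sets tested, 12.5% were higher and 10.6% lower on the hormone-rich side by this count. With a difference of at least 1, that is at least 2-fold, 116 were higher (1.15%) and 52 lower (0.516%). These shares come from the contrast that chose the sides, and nothing is read from them. Of the 116, the low numbers stood at least 1 apart in 15 and the high numbers in 1. The hormones belong to these few: Gcg, Ppy and Pyy all differed by more than 1 between number 2 and number 4, whereas most other probe sets of the group did not.

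Genes other than the hormones stood as high; several differed by more than Gcg and Sst. Cartpt, for the CART neuropeptide, read 1494 and 1495 in number 1 and 1395 and 1325 in number 3, against 144 and 116 in number 2 and 205 and 165 in number 4, a difference of 3.17 (2.85 to 3.48). Ttr, for the thyroid hormone and retinol carrier transthyretin, which alpha cells make, read 465, 629, 476 and 506 against 71.0, 42.0, 78.3 and 82.2 (2.87, range 2.55 to 3.20). Gnat3, for gustducin, the G protein subunit of taste cells, was lower in each vehicle array than in the compound array of its number, yet its 119 to 351 on the high side lay clear of 7.50 to 49.0 on the low side (2.97).

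Nptx1, for neuronal pentraxin, showed a narrow range. It read 226 and 240 in number 1, 220 and 221 in number 3, 17.4 and 34.4 in number 2, and 24.1 and 30.9 in number 4 (2.92, range 2.82 to 3.02). Serpina3n, for an acute-phase serine protease inhibitor, read 727 and 978, and 677 and 976, against 157 and 186, and 142 and 177 (2.30, range 2.22 to 2.38). Unlike Gcg, these genes had nearly one level in numbers 2 and 4. Fbp1, for the gluconeogenic enzyme fructose bisphosphatase, and Spp2, for a secreted phosphoprotein, differed by 2.27 (1.52 to 3.03) and 2.36 (1.11 to 3.62). Fbp1 read 63.9 to 181 on the high side, at most 28.2 on the low side and at most 32.9 with the null virus. As the limit for testing was 39.3, Fbp1 was tested only because of the high side. Gnat3 was nearly so, with 49.0 as its only other value above the limit.

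Probe sets of the class I histocompatibility genes, which encode the molecules that show peptides to T cells, stood on opposite ends. RT1-CE10 read 584, 636, 544 and 531 on the high side and 55.6, 57.9, 50.0 and 70.0 on the low side (3.21, range 3.09 to 3.32). RT1-CE16 read 328, 332, 208 and 211 against 33.7, 27.8, 8.60 and 60.9 (3.05, range 2.60 to 3.51). RT1-A, chosen after its values were seen, went the other way, with a difference of -1.48 (-1.94 to -1.03). These genes are near-identical copies and differ between rat strains, so the probe sets may not tell them apart.

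**Figure D2:**
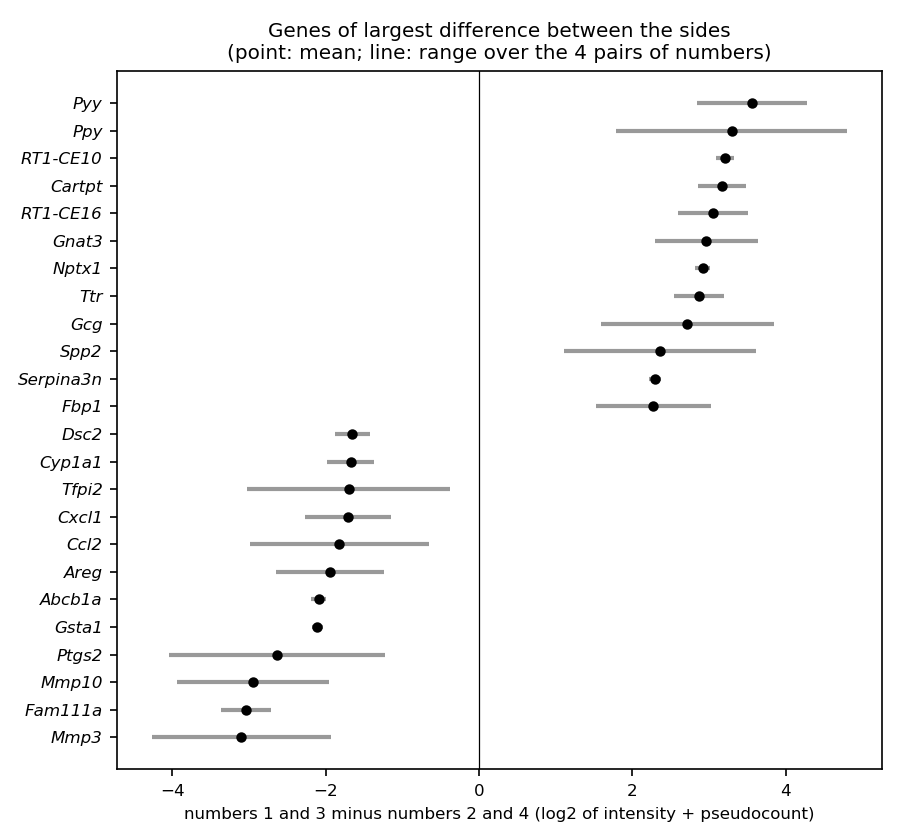
Difference between numbers 1 and 3 and numbers 2 and 4 of the PPARγ virus, in log2 of intensity plus pseudocount, for the 12 genes highest and the 12 lowest on the hormone-rich side among those without overlap; points are means and lines run over the 4 pairs of numbers. Gcg and Ppy have long lines (1.59 to 3.85 for Gcg), Serpina3n and RT1-CE10 short ones.

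On the lower end stood genes of matrix breakdown and inflammation. Mmp3, for the matrix protease stromelysin, read 276 and 176 in number 1, 136 and 62.1 in number 3, 1733 and 1980 in number 2, and 999 and 731 in number 4 (-3.10, range -4.26 to -1.93). Mmp10, for a related protease, differed by -2.94 (-3.94 to -1.95). Ptgs2, for the inducible prostaglandin synthase, read 102, 92.3, 42.4 and 32.1 on the high side and 640, 718, 287 and 188 on the low side (-2.63, range -4.04 to -1.22). For all 3 genes the order of the numbers was 3, 1, 4, 2 from low to high, with number 2 highest.

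The chemokine genes Ccl2, which attracts monocytes, and Cxcl1, which attracts neutrophils, also belong here. Ccl2 read 514, 530, 234 and 176 against 1480, 1834, 959 and 701 (-1.82, range -2.99 to -0.65). Cxcl1 read 189, 263, 173 and 244 against 679, 1489, 482 and 513 (-1.70, range -2.26 to -1.14). Neither gene overlapped between sides. Areg, for the growth factor amphiregulin, and Tfpi2, for a protease inhibitor of the matrix, stood at -1.94 (-2.65 to -1.24) and -1.70 (-3.02 to -0.37).

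A further set of low genes had one level in numbers 2 and 4. Gsta1, for a glutathione transferase, read 212, 180, 231 and 199 against 854, 932, 918 and 890 (-2.11, range -2.18 to -2.03). Fam111a, for a protease that limits virus growth, read 40.7, 39.5, 53.0 and 50.0 against 390, 336, 460 and 452 (-3.04, range -3.37 to -2.71). Abcb1a, for the drug efflux pump P-glycoprotein, Cyp1a1, for a monooxygenase induced through the aryl hydrocarbon receptor, and Dsc2, for desmocollin of cell junctions, differed by -2.09, -1.67 and -1.65. The other probe set of Abcb1a stood at -1.37, also without overlap.

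**Figure D3:**
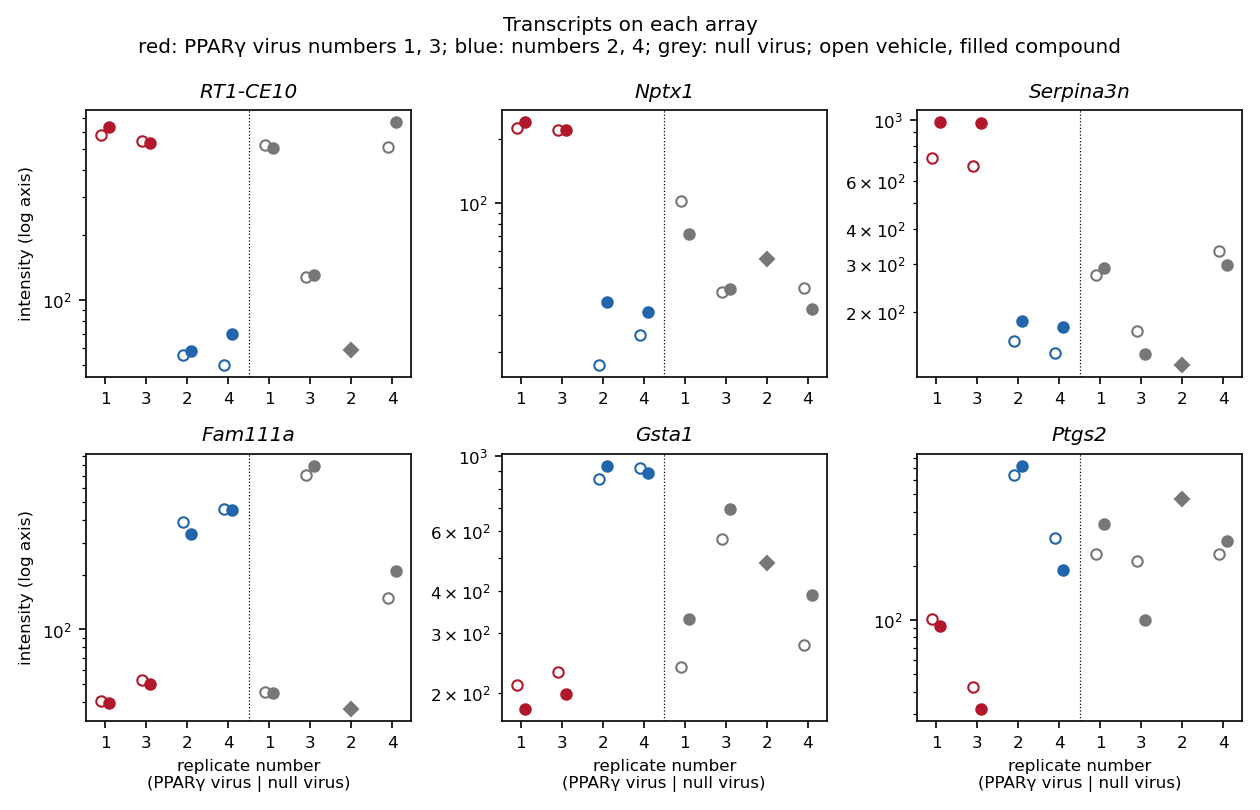
Intensity (log axis) of 6 genes from both ends of the contrast on each array, by replicate number, drawn as in the plot of the hormones. RT1-CE10, Nptx1 and Serpina3n are high and Fam111a, Gsta1 and Ptgs2 low in PPARγ virus numbers 1 and 3; the null virus numbers, at the right of each panel, do not follow the same order, with RT1-CE10 at 128 and 131 in number 3 and 514 and 665 in number 4.

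Endocrine lists were mostly higher on the hormone-rich side, beside a median of 0.03 over all probe sets and a share of 12.5% higher without overlap. Of 15 alpha cell markers, 11 were on the array and 8 were bright enough to be tested; a gene bright only on the high side enters by that side. Of the 8, 4 were higher without overlap (Gcg, Ttr, Slc38a5 and Fev) and 0 lower, with a median of 0.67. Without Gcg, whose values chose the sides, 3 of 7 were higher (median 0.63). Fev is also a member of the list of genes shared by islet cells below, and is counted in both. Slc38a5, an amino acid transporter of alpha cells, read 2546, 2527, 3054 and 3323 against 1002, 765, 1311 and 1175 (1.44). The vitamin D binding protein gene Gc and Tm4sf4 overlapped (0.32 and -0.05). Irx1, for a homeobox transcription factor, was at or under 5.90 on every one of the 8 arrays.

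Of 6 PP cell markers 3 were tested. Among them are Ppy, whose values picked the sides, and Pyy, a hormone of the sides' label. The other, the homeobox gene Meis2, stood higher at 0.78 (0.46 to 1.11). Of 9 delta cell markers 6 were tested, and 4 were higher and 0 lower (median 0.72); without Sst 3 of 5 were higher (median 0.67). Rbp4, a retinol carrier, stood at 1.08, Hhex, the transcription factor of delta cells, at 0.76 and the calcium receptor gene Casr at 0.67. Rbp4 nearly overlapped, at 130 to 167 on the high side against 127 and 94.2 in the compound arrays of numbers 2 and 4. The vehicle arrays of those numbers read 31.8 and 48.8. Its compound response on the low side was 1.37 and did not pass (limma adjusted p = 0.0886). Hhex read 62.2 to 71.7 on the high and 27.1 to 54.1 on the low side, so that unlike Sst it was not led by number 3. Its numbers 1 and 3 differed by -0.10, but number 4, at 28.0 and 27.1, was lower than number 2, at 54.1 and 43.8. The order of the low numbers was thus the reverse of that for Gcg.

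Beta cell genes were not lower where the other hormones were higher. Of 20 markers 14 were tested; 5 were higher (Cltrn, Ero1b, Prlr, Glp1r and Iapp) and 0 lower, with a median of 0.39. The other probe sets of Prlr stood at 0.86 without overlap and 0.33 with overlap. Iapp, for amylin, read 4363 to 4765 against 3172 to 3898. Ins1 and Ins2, the insulin genes, overlapped: Ins1 read 5819 to 6134 on the high side against 4627 to 5963 on the low side (0.17). They are among the brightest probe sets, where an array may no longer resolve differences. The beta cell transcription factor genes Pdx1 and Nkx6-1 stood at -0.02 and -0.01, Pdx1 at 208 to 277 against 214 to 281.

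A list of 20 granule genes and transcription factor genes shared by islet cells had 16 tested, of which 10 were higher and 0 lower, with a median of 0.50. Chga, for chromogranin A, read 983, 1037, 940 and 971 against 430, 339, 588 and 526 (1.08). Snap25, of the vesicle fusion complex, stood at 0.77 and Pam, which amidates peptide hormones, at 0.71. Chga and Snap25 had number 2 lowest and number 4 between, in the order seen for Gcg. The count was 6 of 16 after quantile normalization, with a median of 0.45. Neurod1, Stx1a and Vamp2 overlapped.

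The 5 genes whose log2 values followed Gcg most closely over the 8 arrays were Ppy, Fam110b, Ppp1r1a (a phosphatase inhibitor), Elapor1 and Ica1 (an islet autoantigen), with Pearson's r from 0.988 to 0.994. The 8 points are 4 pairs that share a replicate number. Ica1 read 540 to 573 on the high and 316 to 450 on the low side, a far smaller difference of 0.54.

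Markers of cells outside the endocrine islet were looked at in the same way, again beside 12.5% higher and 10.6% lower over all probe sets; endothelial and leukocyte counts lay near these shares. Of 24 acinar genes 6 were tested, and 1, the elastase gene Cela1, was higher (198, 351, 255 and 182 against 39.2, 77.0, 63.5 and 101). The median was 0.39, and the summed intensity of the list was 570 to 956 against 400 to 593. Amylase Amy2a3 and the carboxypeptidase Cpa1, which define acinar cells, were at most 15.7 and 15.6 on the 8 arrays, under the 39.3 used as limit for testing. Duct markers had 0 of 9 without overlap (median 0.11, sum 7115 to 7422 against 6518 to 7071), and the keratin gene Krt19 stood at -0.01.

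Of 17 stromal genes, 4 were higher and 0 lower (median 0.36, sum 9404 to 12674 against 7974 to 10243). The collagen genes Col1a2 (0.99, range 0.40 to 1.57), Col3a1 (0.62) and Col1a1 and the protease inhibitor gene Timp1 (0.97) made up the 4. Dcn, for decorin, overlapped at -0.88. Endothelial genes had 1 of 7 higher (Emcn, 0.30), with a median of 0.09 and a sum of 720 to 923 against 580 to 790. Pecam1 and Vwf, which define endothelium, were at most 27.4 and 25.9. Leukocyte genes had 2 of 12 higher, Lyz2 (0.81, range 0.03 to 1.59) and Ctss (0.42), and 1 lower, Cd14 (-0.74). Lyz2 was nearly level between number 3, at 212 and 211, and number 4, at 205 and 208. The median of the leukocyte list was 0.26 and its sum 987 to 1663 against 955 to 1160. The leukocyte antigen gene Ptprc was at most 29.2. Schwann cell markers had 0 of 2 without overlap (median 0.18, sum 112 to 160 against 105 to 131). The part of other cell types in the differences was not tested.

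**Figure D4:**
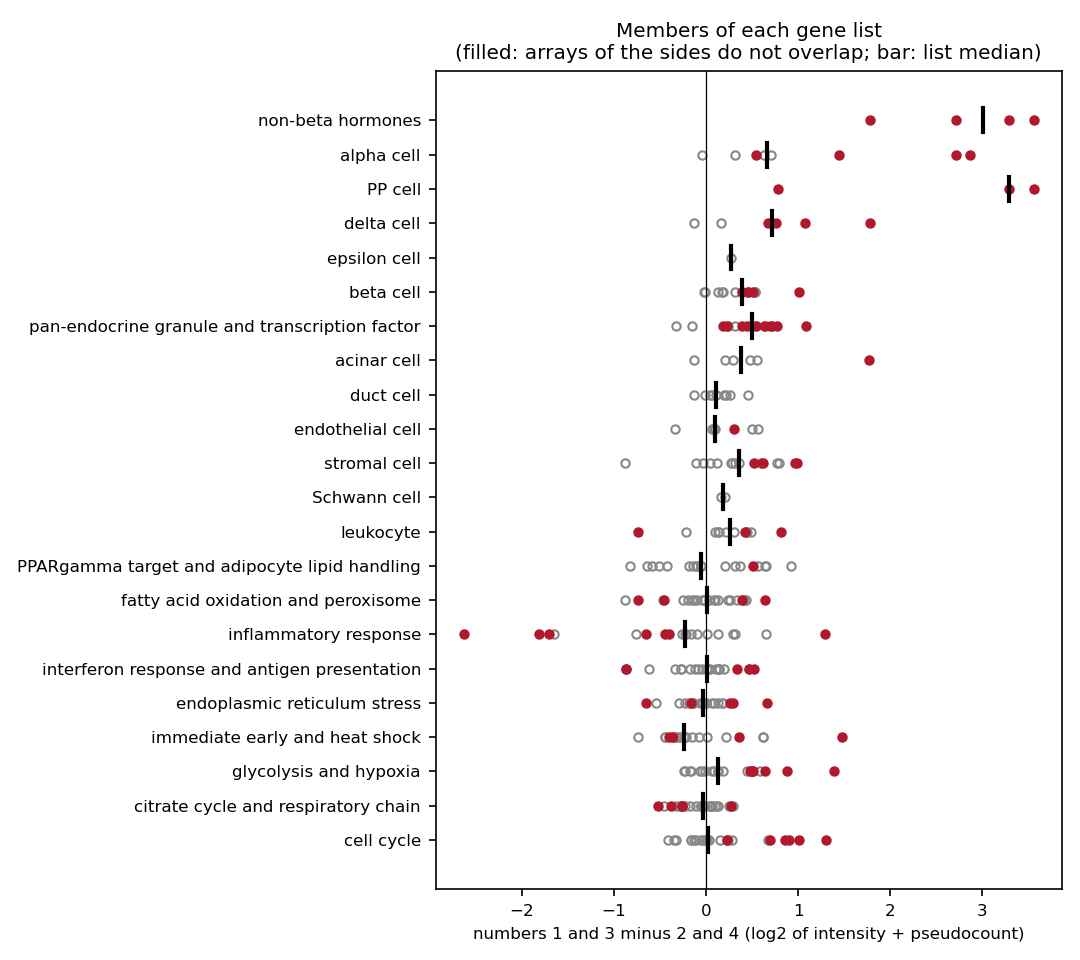
Difference between numbers 1 and 3 and numbers 2 and 4 (log2 of intensity plus pseudocount) for every tested member of each gene list; filled points are genes whose arrays do not overlap between sides, open points overlap, and bars are list medians. Hormone and granule lists lie to the right of 0, and inflammatory genes reach from -2.63 to 1.29.

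Among lists of cell responses, 19 to 30 genes of each were tested. Inflammatory genes had 6 of 19 lower, beside 10.6% of all probe sets, and 1 higher. Beside Ptgs2, Ccl2 and Cxcl1, the lower ones were the chemokine genes Ccl3 and Ccl20 and the mitochondrial dismutase gene Sod2. The list's median was -0.23. Cx3cl1, for the chemokine fractalkine, was the 1 that was higher (1.29); after quantile normalization 7 were lower and 0 higher.

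Of interferon response and antigen presentation genes 3 of 22 were higher and 2 lower, near the 12.5% and 10.6% of all probe sets. Psmb8, an immunoproteasome subunit, read 244, 206, 226 and 230 against 423, 431, 412 and 396 (-0.86). Psmb10, another such subunit, went the other way, at 395, 382, 347 and 321 against 270, 246, 239 and 246 (0.52). The peptide transporter gene Tap2 stood at -0.87 and Irf1 and Ifit1 were higher. The list's median was 0.01 and -0.11 after quantile normalization.

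Glycolysis and hypoxia genes had 7 of 21 higher and 0 lower (median 0.14), beside 12.5% higher and 10.6% lower over all probe sets. The oxygen-sensing hydroxylase gene Egln3 read 335, 240, 151 and 208 against 71.2, 109, 81.5 and 74.3 (1.39). Ankrd37 stood at 0.88 and Vegfa, the endothelial growth factor gene, at 0.64; its other probe set stood at 0.92 with overlap. Cell cycle genes had 6 of 24 higher and 0 lower with a median of 0.02, beside the same shares. Those 6 were Ccnb2 (1.30), the topoisomerase gene Top2a (1.01), the mitotic gene Cdc20 (0.91), Mki67, Ccnb1 and Ccnd3. The other probe set of Cdc20 stood at 0.41 with overlap. After quantile normalization 1 cell cycle gene was lower and 6 were higher.

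In the remaining lists the shares without overlap were near those of all probe sets or below them. Endoplasmic reticulum stress genes had 3 of 21 higher and 2 lower. The chaperone gene Pdia4 stood at 0.66, Creld2 at 0.29 and Ddit3, for the transcription factor CHOP, at -0.66 (median -0.03). Immediate early and heat shock genes had 2 of 19 each way (median -0.24). Junb stood at 1.47 (0.65 to 2.30) and the chaperones Dnajb1 at -0.40 and Hspe1 at -0.36. The other probe set of Dnajb1 stood at -0.49 with overlap. Citrate cycle and respiratory chain genes had 1 of 30 higher, Idh3a (0.27), and 4 lower, led by the succinate dehydrogenase gene Sdha (-0.53) and the citrate synthase gene Cs (-0.38); the median was -0.03. The other probe sets of Cs stood at -0.53 without overlap and 0.13 with overlap. Fatty acid oxidation and peroxisome genes had 2 of 24 each way. Hadh, of mitochondrial beta-oxidation, stood at 0.64, catalase Cat at -0.74 and the electron carrier gene Etfa at -0.46 (median 0.01, and -0.00353 after quantile normalization). PPARγ target and adipocyte lipid handling genes had 1 of 19 higher, the uncoupling protein gene Ucp2 (0.52), and 0 lower (median -0.06).

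The null virus arrays bear the same 4 replicate numbers, and the sides had not been picked in them. The labels do not say that a number is shared between viruses, and arrays of numbers 3 and 4 hardly deviated together across viruses (r across genes from -0.120 to 0.120), so the comparison is one of numbers and not of the sides. There, number 2 was 1 array deposited under both treatment labels. Gcg read 2621 and 2879 in number 1, 2834 and 3305 in number 3, 1043 in number 2, and 3423 and 3282 in number 4. Ppy read 1708 and 2106, 918 and 1004, 313, and 3919 and 2906. Sst read 172 and 173 in number 1, 332 and 425 in number 3, 335 in number 2, and 238 and 194 in number 4. Number 2 was thus lowest for Gcg and Ppy under both viruses, but for Sst it stood above 5 of the 6 other null virus arrays. Number 4, which belonged to the low side under the PPARγ virus, held the highest Ppy and Pyy values of the null virus arrays.

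Numbers 1 and 3 against 2 and 4 in the null virus arrays gave 0 calls of 10078 in either direction (0%) with limma at an adjusted p under 0.05. At an unadjusted p under 0.05 there were 200, where 503.9 would be 5% of those tested. Gcg stood at 0.63 ± 0.46 (SE), Ppy at 0.39 ± 0.96, Pyy at 0.35 ± 0.69 and Sst at -0.07 ± 0.37, each with an adjusted p of 1.00 in limma. Without number 2 all 4 changed sign, with Gcg at -0.21, Ppy at -1.32, Pyy at -0.85 and Sst at 0.24; without number 4 Gcg stood at 1.47 and Ppy at 2.09. Without number 3 there were 4 calls and without number 2 there was 1. The genes with the smallest p, none of which passed, were Sdhaf2, Fgd6, Tspan15, Mindy2 and Gng5 on the higher and Slc4a7, Morf4l2, Mad1l1, Ipp and Prss23 on the lower side. Their differences ran from -0.67 to 1.75.

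The null virus array of number 2 was also set alone beside the 6 other null virus arrays, a comparison chosen after its values were seen and with no test. It lay below all 6 in 16.6% of probe sets and above all 6 in 14.7%. Of the 116 probe sets higher on the hormone-rich side, it lay below all 6 in 45 (38.8%). Of the 52 lower ones it lay above all 6 in 11 (21.2%). Ttr read 46.5 there against 60.7 to 124 elsewhere, Cartpt 293 against 357 to 888, and Pyy 237 against 485 to 1584. Ptgs2 read 469 against 100 to 341. Fam111a, high in numbers 2 and 4 of the PPARγ virus, read 36.7 in this array, 708 and 789 in null virus number 3, and 44.7 to 209 in the rest, so that it did not keep its order of numbers across viruses.

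Whether the agonist acted differently on the sides was asked through the compound minus vehicle difference within each number, which does not use a number's level. No probe set passed the test of the difference between sides (0 of 10078, or 0%, with limma), with 671 at an unadjusted p under 0.05, where 503.9 would be 5%. The median 95% confidence interval of this difference reached 0.45 to either side. Differences as large as -2.38 did not pass the adjusted threshold.

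Within the hormone-rich side 17 probe sets rose (0.169%) and 3 fell (0.0298%), and within the other side 10 rose (0.0992%) and 0 fell. Of the 24 called on either side, 6 were called on both. Fabp4, the fatty acid-binding protein of adipocytes, read 58.0 and 585 (vehicle, compound) in number 1, 25.5 and 260 in number 3, 41.2 and 781 in number 2, and 68.0 and 662 in number 4. It rose by 3.19 ± 0.19 (SE, limma adjusted p = 0.00134) on the hormone-rich side and by 3.65 ± 0.19 (adjusted p = 4.47e-04) on the other. The difference between sides was -0.46 ± 0.28 (adjusted p = 0.756).

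G0s2, which restrains fat breakdown, rose by 1.14 on the rich side (limma adjusted p = 0.00868) and by 1.27 on the other (0.00549). Angptl4, for a lipase inhibitor, rose by 1.85 (0.0381) and 2.50 (0.00758). Cd36, the fatty acid transporter gene, rose by 2.81 on the rich side (0.0457) and stood at 2.23 on the other (0.124), while Gpd1, for glycerol phosphate dehydrogenase, stood at 0.78 (0.0632) and rose by 1.04 (0.0359). For none of these did the difference between sides pass (adjusted p from 0.736 to 0.869). Lpl, for lipoprotein lipase, stood at 0.93 and 1.37, Pck1, of glycerol synthesis, at 0.65 and 1.01, and the acyl-CoA synthetase gene Acsl1 at 0.75 and 0.77, without passing on either side.

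Of the 19 tested PPARγ target genes, 4 rose on each side and 0 fell, beside 0.169% and 0.0992% rising over all probe sets. The median was 0.65 on the hormone-rich and 0.61 on the other side, beside medians of -0.02 and -0.01 over all probe sets. On the rich side 17 of the 19 were above 0 and on the other 18, beside 4644 and 4703 of all 10078. The response of these genes was larger on the hormone-poor side in 10 of 19, near the 5160 of 10078 over all probe sets. Of fatty acid oxidation and peroxisome genes 1 of 24, the peroxisome growth gene Pex11a, rose on the rich side (0.93, limma adjusted p = 0.0457), with 0.86 on the other (0.0838). Of inflammatory genes 2 of 19 rose on the rich side, Cx3cl1 by 1.5 and Nos2, for the inducible nitric oxide synthase, by 1.95 (both limma adjusted p = 0.0457), and 0 on the other, where they stood at 0.46 and 0.38. The difference between sides did not pass for either gene (adjusted p = 0.650 and 0.647).

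**Figure D5:**
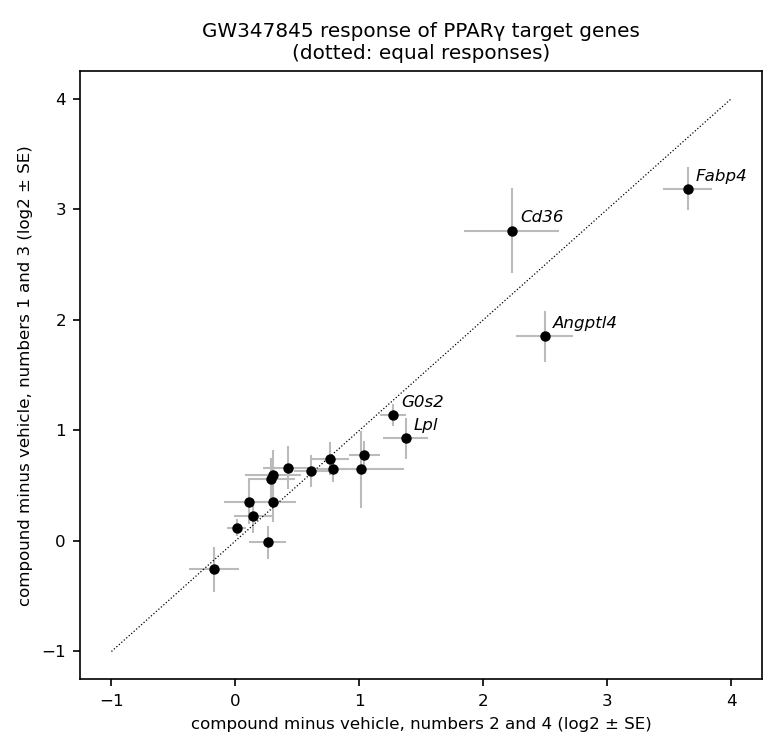
Response to GW347845 (compound minus vehicle, log2, ± SE of the limma fit) of 19 PPARγ target genes in numbers 1 and 3 (vertical) and in numbers 2 and 4 (horizontal); the dotted line marks equal responses. Fabp4 lies at 3.19 and 3.65 and most genes lie near the line.

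The count on the rich side rests on both of its numbers: it was 1 without number 1 and 0 without number 3, and Fabp4 then stood at 3.13 (limma adjusted p = 0.0698) and 3.24 (0.231), nearly as before. It was 43 without number 2 and 35 without number 4. The count on the poor side was 5 without number 1 or 3 and 23 without number 4. The difference between sides had 3 calls without number 2.

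The hormones themselves did not pass a test of the response. Pyy stood at 0.01 on the hormone-rich and at -0.86 ± 0.13 (SE, limma adjusted p = 0.0886) on the other side. Gcg stood at -0.09 and -0.60, Ppy at -0.22 and -0.44, and Sst at 0.41 and -0.59. All 4 were lower in the compound than in the vehicle array of number 2, while in number 4 Ppy was 692 with vehicle and 720 with compound.

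The genes nearest to passing the test between sides were Sart1 (1.30), Rnase4 (1.13), C2h4orf3 (1.19), Chd9 (0.86) and Grcc10 (0.66) with a larger response on the rich side, and Cndp2 (-0.97), Ilrun (-0.75), Sypl2 (-1.90), Htr4 (-2.38) and Macf1 (-0.94) with a smaller one, at limma adjusted p from 0.533 to 0.58. Rnase4, a secreted ribonuclease gene, read 91.7 and 214 in number 1 and 82.1 and 237 in number 3, against 85.6 and 93.3 in number 2 and 88.5 and 108 in number 4.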

How the data were processed

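RNA of rat islets was measured on an oligonucleotide array with 15923 probe sets. The values deposited by the authors are intensities, scaled so that each array's mean after trimming 2% at each end was 150.0, as tested on the columns; how probes were summarised is not given in the sources used here. An array gives no depth, and the number of arrays limits precision. The 57 controls were left out. Values from the deposited table were taken as log2(intensity + 4.6), 4.6 being the 10th percentile of positive values. Probe sets above 39.3, the 40th percentile, in at least 4 of 14 arrays were tested: 10078, of which 8488 named 1 gene, 235 several and 1355 none. A gene stands for its brightest probe set. Symbols came from the platform annotation, checked by gene identifier, with 0 renamed.

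The columns of null virus number 2, vehicle and compound, were identical; they counted as 1 array, in the number test alone. Responses were fitted with limma 3.58.1 in R 4.3.3 (intensity trend, replicate number as block) on the 8 PPARγ virus arrays, and null virus numbers on number means, with Benjamini-Hochberg adjustment over all 10078 and a threshold of 0.05. The response fit was tested on simulated data. There the test between sides found 53% of planted differences of 1 and 94% of those of 2, with 6 false calls. A true difference of 1 could thus often be missed. Vehicle and compound arrays of a number deviated together (r across genes 0.574 to 0.702 with the PPARγ virus and 0.445 to 0.475 with the null virus). Across viruses number 1 did (0.302 and 0.433), number 3 did not (-0.00547 and -0.120), and number 4 gave 0.120 and -0.0216. The sides, members and gene lists were chosen with earlier results of these data known. Named were the 4 hormones and Pparg; the 12 highest and 12 lowest genes without overlap; up to 3 such members per list by size; for tests up to 8 passing genes each way, or the 5 and 5 of smallest p; 8 PPARγ target genes by response; and the 5 genes most like Gcg. Further genes were chosen after their values were seen. Plots used matplotlib 3.10.9 under Python 3.11.15.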

Additional observations from a re-analysis of the deposited data

Results flagged for a closer look

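Of 98 named genes, each looked at in the 4 vehicle and the 4 compound arrays of the PPARγ virus, 6 of 196 groups held an array whose gap to its nearest neighbour took nearly the whole range of the group; chance gives about 5%. Sst read 1253.7 in vehicle number 3 against 222.8 to 293.8 in the other 3. Ipp was low in number 1 under both treatments, at 109.1 against 240.1 to 281.9 in vehicle and 99.2 against 231.5 to 259.3 in compound. Slc4a7 read 368.2 in vehicle number 2 against 215.9 to 228.9, Sdhaf2 396.7 in vehicle number 4 against 363.7 to 369.1, and Sypl2 31.4 in compound number 3 against 39.7 to 41.1.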

How the results depend on the processing

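The 4 hormones and the genes highest and lowest between sides, 25 genes in all, kept their direction in all 272 recomputed values. Their arrays do not overlap between sides, so leaving out arrays or changing the pseudocount or filter could not reverse them. Only quantile normalization could have done so, and little is learned from this count. Other genes were not recomputed. The count of probe sets higher on the hormone-rich side was 116; it was 72 with the stricter filter and 181 in vehicle arrays alone, where fewer arrays must not overlap. The lower count was 52, and 90 in vehicle arrays alone. Leaving out one number gave 131 to 175 higher and 46 to 142 lower. Over all sizes, quantile normalization gave 1061 higher and 1219 lower without overlap, against 1256 and 1067. Calls on the hormone-rich side (20) were 9 with a pseudocount of 1, 33 with 16, 1 without a filter, 3 with the stricter filter, 9 after quantile normalization and 0 in limma without trend. On the poor side (10) they were 1 without a filter, 5 after quantile normalization and 0 in limma without trend. Without the replicate block, the calls were 3 and 4. Leaving out one number gave 0 to 43 on the rich and 5 to 23 on the poor side, 0 to 3 for the difference between sides and 0 to 4 for the null virus numbers; these last 2 counts were 0 in all other settings tried. In the null virus, leaving out one number moved Gcg over -0.21 to 1.47, Ppy over -1.32 to 2.09, Pyy over -0.85 to 1.55 and Sst over -0.62 to 0.48, so all 4 changed sign, and Ppy stood at -0.021 with number as a random block. Likewise the difference in response ran over -0.31 to 1.46 for Cd36, -0.28 to 0.012 for G0s2, -1.19 to 0.46 for Pck1 and -0.34 to 0.30 for Acsl1, and the response of Pck1 on the rich side over -0.18 to 1.47; none of these had passed its test. With 2 numbers a side, leaving one out leaves a lone number that is assumed to vary like the rest.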

Other observations

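The glutathione transferase genes, taken as a family after the value of Gsta1 was seen and described with no test, did not move as one. Of 17 measured, 4 were lower without overlap on the hormone-rich side and 0 higher, with a median of -0.13, beside 10.6% lower over all probe sets. The 4 were Gsta1, Gstp1 (-1.25), Gsta3 (-1.16) and Gstk1 (-0.47). Gsta4 went the other way at 1.39, with overlap, and the microsomal gene Mgst1 stood at -0.14.

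The 2 probe sets of Clcc1, a chloride channel gene, lay on opposite ends without overlap, at -2.18 and 0.78.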
